A study of Mus musculus with 6 samples.

Results

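The core circadian clock was examined in stem cells of the mouse hair follicle and in hair germ cells through 10 genes: Arntl, Clock, Npas2, Per1, Per2, Per3, Cry1, Nr1d1, Nr1d2 and Dbp. They were chosen by name. All 10 were found on the array through the RefSeq accession of their probes, out of 17848 named genes tested in all. They were represented by 11 probes, 2 of them for Dbp. The study compared male mice whose hair was removed by depilation and whose skin then received either acetone (vehicle) or DMBA, a carcinogenic polycyclic aromatic hydrocarbon. Cells were taken 3 days after exposure. They were sorted from epidermal suspensions as K15-EGFP(Hi)/ITGA6(Hi)/Scal(-) cells, so a reporter driven by the keratin 15 promoter defines them in both groups. Each group held 3 samples from different mice, and each sample was read on 1 array of 1 colour. Strain, age and the hour of harvest are not given in the sources used here.

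The circadian clock is a feedback loop of transcription that most cells of the body run with a period of about a day. ARNTL, also called BMAL1, pairs with CLOCK or NPAS2 and switches on the Per and Cry genes, whose proteins return to block the pair. The same pair drives Nr1d1 and Nr1d2, whose REV-ERB proteins repress Arntl, and Dbp, a transcription factor that passes the rhythm to other genes through D-box sites. In most mouse tissues Arntl and Npas2 peak in antiphase to Nr1d1, Dbp and the Per genes, so samples taken at different phases differ in opposite directions in the 2 arms. In skin, clock genes are known to oscillate in the epidermis and in the hair follicle.

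The DNA letters through which the arms act are shown for the 5 members in which a searched site was found. The arms themselves were taken from known biology, not from these matches. Promoter windows of 250 bases before to 50 bases after the start site came from RefSeq (GRCm38.p6) and existed for 9 of the 10 genes; Per2 had no entry. Both strands were searched for the E-box CACGTG and its variant CACGTT (E-prime box), to which ARNTL and its partners bind. The other motifs were the D-box TTANGTAA, bound by DBP, and the elements TAGGTCA and TGGGTCA, read by the ROR and REV-ERB receptors. Capitals mark the matches, each printed 5′ to 3′ on the strand of the gene. The stretches lie at chr4:151044786-151044900 (minus strand) for Per3, chr10:85185079-85185163 (minus) for Cry1, chr11:69098753-69098818 (plus) for Per1, chr11:98775378-98775435 (minus) for Nr1d1 and chr7:113207530-113207558 (plus) for Arntl.
Per3: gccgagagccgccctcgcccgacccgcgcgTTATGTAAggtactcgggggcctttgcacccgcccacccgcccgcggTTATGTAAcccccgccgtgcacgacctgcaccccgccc
Cry1: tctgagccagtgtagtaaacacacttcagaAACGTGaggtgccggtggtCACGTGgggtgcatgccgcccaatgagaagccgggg
Per1: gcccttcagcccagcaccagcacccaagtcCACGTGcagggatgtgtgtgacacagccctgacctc
Nr1d1: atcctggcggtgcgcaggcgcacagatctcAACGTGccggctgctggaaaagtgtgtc
Arntl: aaggcagaaagTAGGTCAgggacggaggt

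The Per3 stretch held 2 copies of the D-box, at positions -205 and -158 from the start site. The Cry1 stretch held an E-prime box at -79 and an E-box at -60. Per1 held an E-box at -166 and Nr1d1 an E-prime box at -28. In Arntl the receptor element lay at 31 bases after one of its start sites, within the transcribed part. Among all 32851 windows of the same length, 7.15% held an E-box, 4.68% the variant, 2.32% a D-box, 2.61% TAGGTCA and 3.98% TGGGTCA. Clock, Npas2, Nr1d2 and Dbp held none of these letters in their windows, which says nothing of sites elsewhere. A match is a description of the sequence, not a measured binding site.

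Values are log2 spot intensities minus the log2 of the 75th percentile intensity of the same array, so 0 is the level of a probe brighter than 75% of all probes. Probes differ in how they bind, so no gene's level is set against another's. That percentile lay between 1355 and 2274 on the 6 arrays. Well above background were 83.63%, 82.58% and 76.98% of probes on vehicle 1 to 3 and 80.91%, 69.28% and 73.45% on DMBA 1 to 3. In this share DMBA 2 and DMBA 3 lay below all vehicle arrays. All 8 markers of follicle stem cells and hair germ that were examined, among them Krt15, Itga6, Cd34, Lgr5 and Lhx2, were well above background on all arrays. The probes of 9 clock genes were well above background on all 6 arrays, and that of Cry1 on 5, with DMBA 3 as the exception.

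No core clock gene was called between DMBA and vehicle by limma, and the 3 DMBA values of every one of the 10 genes overlapped the 3 vehicle values. Of the 10 genes, 0 passed at adjusted p under 0.05 (smallest adjusted p = 0.986), where 0% of all genes tested passed. At unadjusted p under 0.05, 0 were higher and 0 lower, against 2.73% and 2.49% of all genes. Complete separation, with every DMBA array above every vehicle array, occurred in 4.88% of all genes and the reverse in 5.17%, and in 0 clock genes in either case. Of the clock genes, 5 had a positive and 5 a negative log2 fold change, with a median of 0.04 against -0.01 over all genes. The median size of the difference, whatever its sign, was 0.19 against 0.26 over all genes. In sorted bulk samples, less RNA per cell and fewer cells of a type cannot be told apart.

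**Figure D1:**
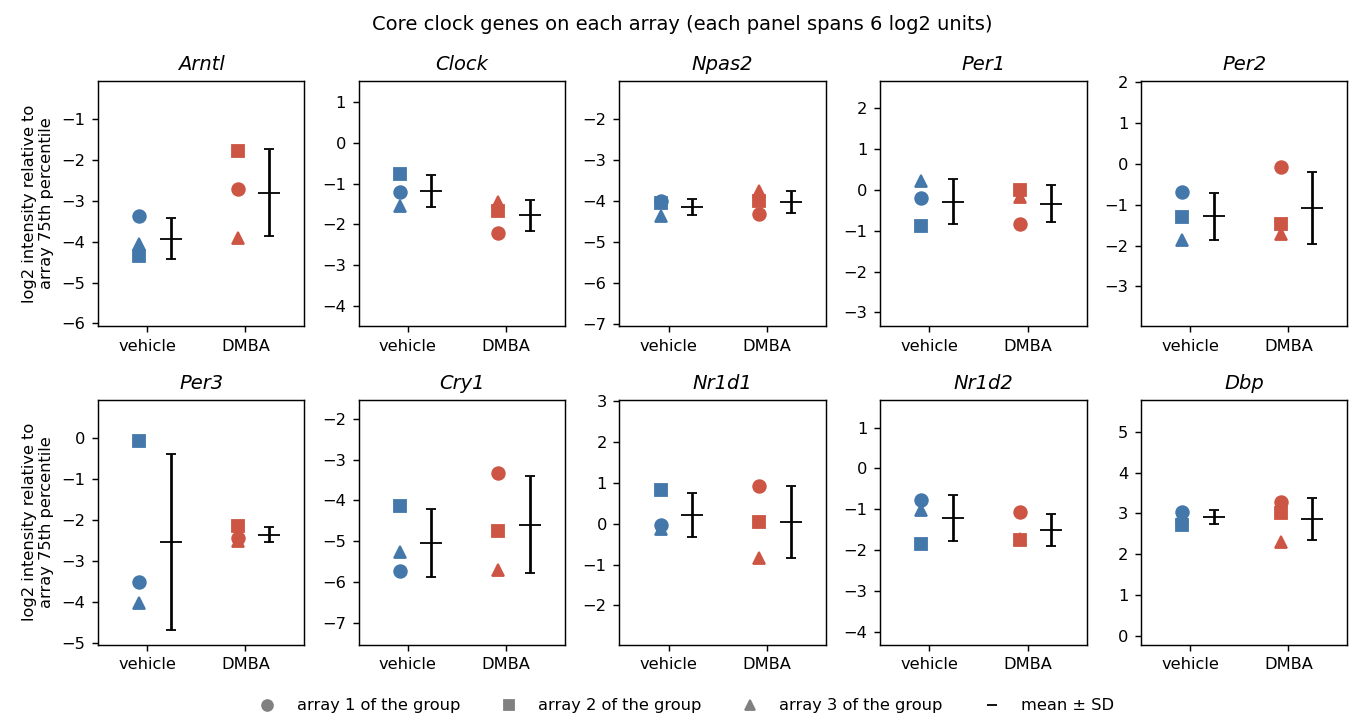
Log2 intensity relative to the 75th percentile of the array for the 10 core clock genes, by group, with 1 point per array (blue vehicle, red DMBA; shape gives the replicate) and black bars for mean ± SD. The groups overlap in every panel, and vehicle 2 stands far above the other arrays for Per3.

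Among the activators, Arntl had the largest difference of the 10 genes. It lay at -3.36, -4.34 and -4.06 on vehicle 1 to 3 and at -2.70, -1.79 and -3.92 on DMBA 1 to 3. DMBA 1 and DMBA 2 were above all vehicle arrays, while DMBA 3 lay within their range. The means were -3.92 ± 0.50 (SD, n = 3) in vehicle and -2.80 ± 1.07 in DMBA. The log2 fold change was 1.12 (SE 0.58, 95% interval -0.28 to 2.52), which is 2.17-fold higher on average and was not called by limma (adjusted p = 0.986). Without DMBA 3 it was 1.68 (adjusted p = 0.839), and without DMBA 2 it was 0.61.

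Clock, the partner of ARNTL, went the other way. It lay at -1.21, -0.77 and -1.54 on the vehicle arrays and at -2.20, -1.67 and -1.46 on the DMBA arrays. Vehicle 3 fell among the DMBA values, so the groups overlapped by that array. The log2 fold change was -0.60 (SE 0.32, 95% interval -1.37 to 0.17; limma adjusted p = 0.986). It was -0.40 without vehicle 2 and -0.39 without DMBA 1, in each case over 1.5 times smaller.

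Npas2, which can replace CLOCK in the pair, was the steadiest member. Its values were -4.01, -4.06 and -4.36 in vehicle and -4.31, -3.98 and -3.76 in DMBA. They spanned 1.51-fold from the lowest to the highest array, and the residual SD of the gene was at the 19.0th percentile of all genes tested. Its log2 fold change was 0.12 (SE 0.25, 95% interval -0.48 to 0.73).

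Of the Period genes, whose proteins carry the repression, Per1 had the smallest difference. It lay at -0.19, -0.87 and 0.21 on the vehicle arrays and at -0.83, 0.01 and -0.17 on the DMBA arrays. Each group held 1 low array, vehicle 2 and DMBA 1, and the other 4 arrays lay above both. The log2 fold change was -0.05 (SE 0.38, 95% interval -0.96 to 0.87). Per1 is also induced directly by glucocorticoids and by acute stimuli, apart from the hour of day. Of 8 glucocorticoid-inducible genes examined beside it, such as Fkbp5, Tsc22d3 and Sgk1, none passed in limma before or after adjustment, with a median log2 fold change of -0.02. Of 9 immediate early genes, 1 was higher at unadjusted p under 0.05 and 0 were lower, against 2.73% and 2.49% of all genes. It was Ier2 with 1.23 (SE 0.42; limma adjusted p = 0.894), and the median of the 9 genes was 0.56.

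Per2 lay at -0.69, -1.31 and -1.85 in vehicle and at -0.08, -1.47 and -1.72 in DMBA. DMBA 1 was the highest array of all 6, and the other 2 DMBA arrays lay within the vehicle range. The log2 fold change was 0.20 (SE 0.52, 95% interval -1.07 to 1.46), and without DMBA 1 it was -0.31.

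Per3 was dominated by a single array. On vehicle 2 it lay at -0.07, against -3.51 on vehicle 1 and -4.03 on vehicle 3, and the DMBA arrays lay between them at -2.43, -2.15 and -2.50. The span from vehicle 3 to vehicle 2 was 15.6-fold, and the residual SD was at the 96.0th percentile of all genes. The vehicle mean was -2.54 ± 2.15 (SD, n = 3) and the DMBA mean -2.36 ± 0.18, with a log2 fold change of 0.18 (SE 1.01, 95% interval -2.28 to 2.63). Without vehicle 2 all 3 DMBA arrays lay above both remaining vehicle arrays and the value was 1.41, with a limma p of 0.00492 before adjustment and an adjusted p of 0.729. Without vehicle 3 it was -0.57 and without vehicle 1 -0.31, so the sign of Per3 depended on which vehicle array was counted. Per1 on vehicle 2 was the lowest of all arrays, and Per2 on vehicle 2 was near its mean, so the other Period genes did not share the high value of that array.

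Cry1, the cryptochrome that extends repression into the late phase of the cycle, was the member not detected on every array. It lay at -5.73, -4.13 and -5.27 on the vehicle arrays and at -3.33, -4.75 and -5.70 on the DMBA arrays. DMBA 1 was the highest, and the lowest DMBA value, on the array where it was not well above background, was close to that of vehicle 1. The log2 fold change was 0.45 (SE 0.70, 95% interval -1.23 to 2.14), and without DMBA 1 it was -0.18.

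The REV-ERB genes form the arm that represses Arntl. Set against their own means over the 6 arrays, they went opposite ways on each vehicle array. Nr1d1 was at -0.17, 0.70 and -0.27 from its mean there, and Nr1d2 at 0.59, -0.48 and 0.36. On DMBA 1 to 3 they went the same way, Nr1d1 by 0.80, -0.08 and -0.98 and Nr1d2 by 0.30, -0.39 and -0.37. This is a description without a test. Nr1d1 lay at -0.04, 0.83 and -0.13 in vehicle and at 0.93, 0.05 and -0.85 in DMBA. The highest and the lowest of the 6 values were both DMBA arrays. Its log2 fold change was -0.17 (SE 0.52, 95% interval -1.42 to 1.07). Nr1d2 lay at -0.78, -1.85 and -1.01 in vehicle and at -1.06, -1.76 and -1.74 in DMBA, so that vehicle 2 was the lowest array of Nr1d2 and the second highest of Nr1d1. Its log2 fold change was -0.31 (SE 0.37, 95% interval -1.21 to 0.59).

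Dbp, the output factor, was measured by 2 probes and is the member for which a shift was bounded most closely together with Npas2. On the brighter probe it lay at 3.04, 2.71 and 2.97 in vehicle and at 3.28, 3.01 and 2.30 in DMBA. The DMBA arrays held both the highest and the lowest value, and all 6 lay within 1.97-fold. The second probe lay at 2.71, 2.09 and 2.61 in vehicle and at 2.79, 2.67 and 2.21 in DMBA. The log2 fold change was -0.05 (SE 0.31, 95% interval -0.81 to 0.71) on the brighter probe and 0.09 (SE 0.29, 95% interval -0.61 to 0.80, from the same model over all kept probes) on the other, so the sign turned between the probes. The 2 probes gave the arrays the same order, from DMBA 1 as the highest, except at the low end. There the lowest was DMBA 3 on the brighter probe and vehicle 2 on the other. Pearson's r between the 2 probes was 0.85 over the 6 arrays.

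**Figure D2:**
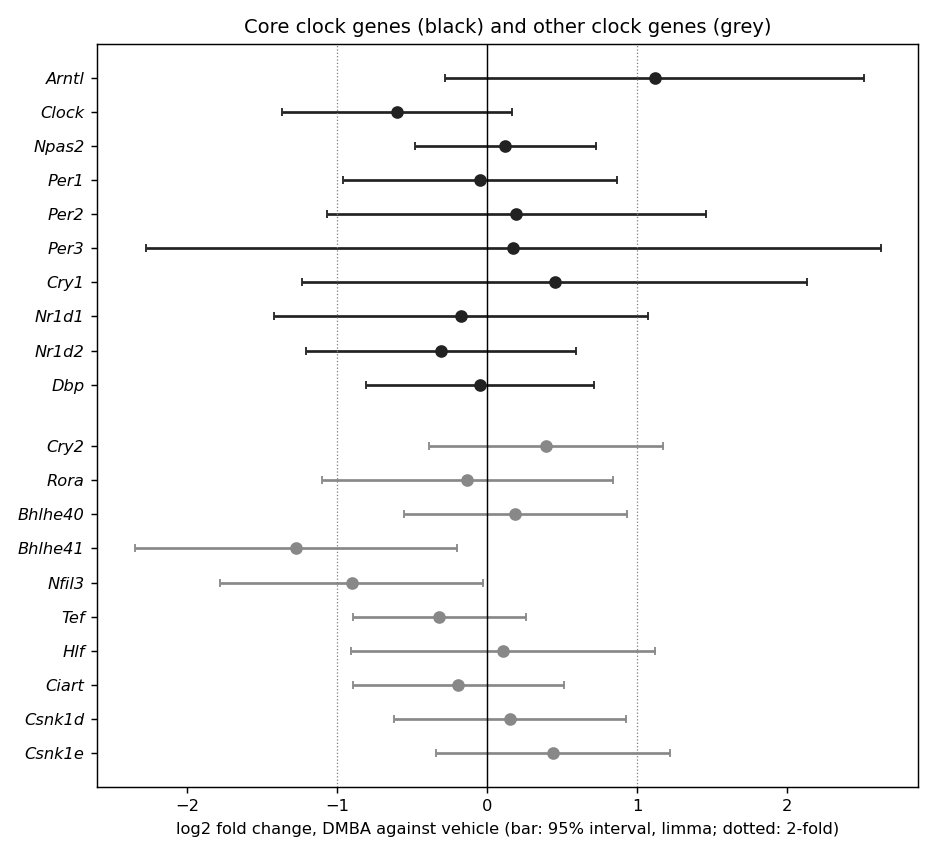
Log2 fold change of DMBA against vehicle with its 95% interval from limma, for the 10 core clock genes (black) and 10 further clock genes (grey); dotted lines mark 2-fold. Every black interval spans 0, and those of Npas2, Per1 and Dbp stay within 2-fold on both sides.

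The intervals set what these arrays could exclude. In 3 of the 10 genes, Npas2, Per1 and Dbp, the 95% interval stayed within 2-fold in both directions. In the other 7 it reached beyond 2-fold on at least 1 side, and for Arntl it reached 5.72-fold higher. Over all genes tested, 39.0% had an interval within 2-fold. The median residual SD of the clock genes was 0.62 on the log2 scale, against 0.45 over all genes.

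A shift in the phase of the cycle would move Arntl and Npas2 apart from the repressor and output arm. Each array was therefore described by the mean deviation of each arm. Clock was counted with the activators, though it is not among the antiphasic genes named above. The deviation of a gene is its value minus its own mean over the 6 arrays. Cry1, whose peak lies between the arms, was left out. The phase difference is the mean deviation of Per1, Per2, Per3, Nr1d1, Nr1d2 and Dbp minus that of Arntl, Clock and Npas2. It was -0.09, 0.37 and 0.09 on vehicle 1 to 3 and 0.45, -0.50 and -0.33 on DMBA 1 to 3. With Clock counted, DMBA 1 was the highest array and DMBA 2 the lowest, so the DMBA arrays enclosed all vehicle arrays. Clock deviated by 0.71 on vehicle 2 and by -0.73 on DMBA 1, where Arntl deviated by -0.98 and 0.66. Their deviations partly cancelled in the arm, so the order of these arrays rests in part on Clock. The means were 0.12 ± 0.23 (SD, n = 3) in vehicle and -0.12 ± 0.50 in DMBA. The difference of -0.25, with Clock counted, was smaller in size than the SD among DMBA arrays and larger than that among vehicle arrays. Arntl (1.12) and Clock (-0.60) had log2 fold changes of opposite sign, which drew the group difference of the activator arm toward 0. The phase difference without Clock was not computed. Leaving out 1 array at a time moved the difference of -0.25 between -0.53 (without DMBA 1) and -0.06 (without DMBA 2), and -0.12 remained without vehicle 2. Without Per3 the difference was -0.29, and the values were 0.13, -0.05 and 0.35 in vehicle and 0.52, -0.56 and -0.39 in DMBA. Vehicle 1 and vehicle 2 thereby changed sign, and vehicle 2 went from the highest vehicle array to the lowest, so the order of the vehicle arrays rests on Per3. These alternatives were chosen after seeing the data.

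On DMBA 1, 5 of the 6 genes of the repressor and output arm were above their own mean, all but Per1, and 1 of the 3 activators was. On DMBA 3 it was the reverse for that arm, with 1 of 6 above the mean, again Per1, and 2 of the 3 activators above. The vehicle arrays had 4, 2 and 3 of the 6 above. The DMBA arrays thus spread more widely in this arm than the vehicle arrays, by description of 3 arrays each and without a test.

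**Figure D3:**
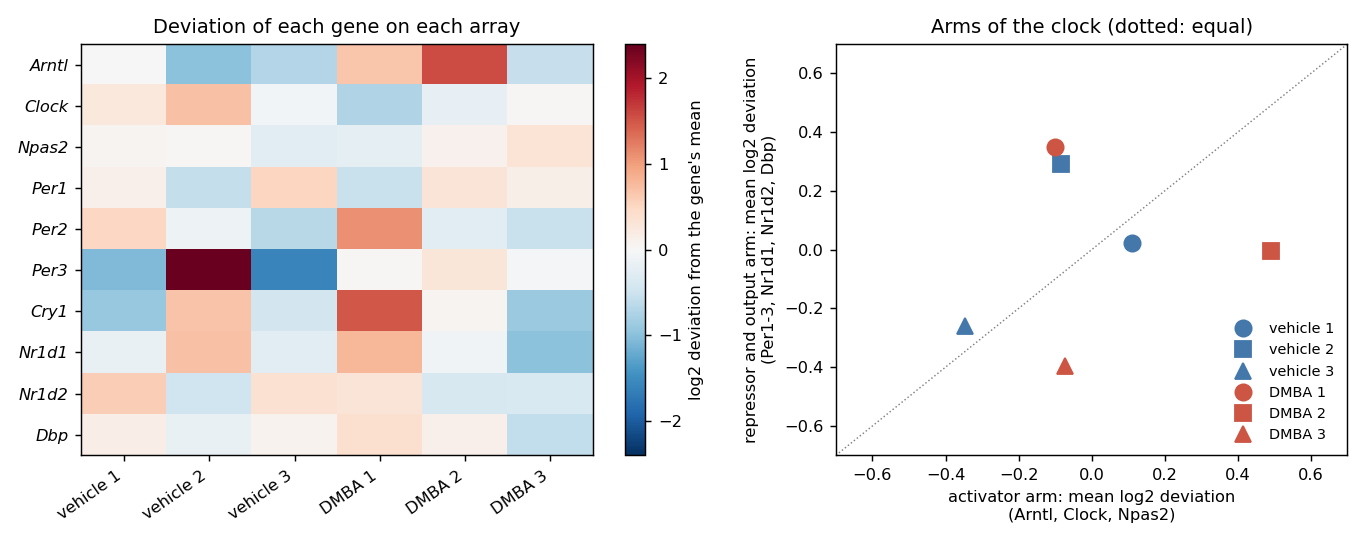
Left, log2 deviation of each core clock gene from its own mean over the 6 arrays; right, mean deviation of the repressor and output arm against that of the activator arm, 1 point per array, with equal deviations on the dotted line. With Clock counted among the activators, DMBA 1 lies above the line and DMBA 2 and 3 below it, on both sides of the vehicle arrays.

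The antiphase relation was also looked for across arrays, as the correlation of Arntl with each of the other 9 genes over the 6 arrays. None of the 9 relations passed an exact permutation test (two-sided, adjusted p = 0.988 for every Pearson's r and 0.788 to 0.919 for Spearman's rho). Arntl and Nr1d1, its repressor, had r = 0.14 (exact permutation p = 0.774) and rho = 0.26 (exact p = 0.658). Without the 2 arrays farthest from the Arntl median, DMBA 2 and DMBA 1, r was -0.42. Arntl and Dbp had r = 0.54 (exact permutation p = 0.278) and rho = 0.66 (exact p = 0.175), and r = 0.36 without these 2 arrays. The largest in size was that with Clock, r = -0.63 (exact permutation p = 0.192) and rho = -0.71 (exact p = 0.136), and r = -0.33 without them. Arntl and Dbp, which run in antiphase in most tissues, therefore gave no negative relation in these samples, and 6 arrays leave all 9 relations imprecise. Both groups were pooled, so each r also holds the group difference, a log2 fold change of 1.12 for Arntl. The hours of harvest are not given, so these relations cannot tell whether the antiphase holds in these cells.

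Of 20 other genes of the clock and its regulators that were examined, 9 had a positive and 11 a negative log2 fold change (median -0.08). With limma 0 passed at adjusted p under 0.05. At p under 0.05 before adjustment 2 were lower and 0 higher, against 2.49% and 2.73% of all genes tested. Both belong to the accessory repressors. Bhlhe41, which encodes DEC2, a repressor at E-boxes, lay at -1.60, -0.42 and -0.68 in vehicle and at -2.60, -2.45 and -1.48 in DMBA. Vehicle 1 fell below DMBA 3, and the log2 fold change was -1.28 (SE 0.44; limma adjusted p = 0.897). Another probe of the same gene gave 0.93 (SE 0.52), the opposite direction, so the lower value of Bhlhe41 rests on 1 probe.

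Arntl2, a paralogue of Arntl that can also pair with CLOCK, is named here after its values were seen. Its brightest probe had a log2 fold change of 0.47 (SE 0.33), with every DMBA array above every vehicle array, as in 4.88% of all genes. A second probe lay at -3.51, -4.13 and -3.89 in vehicle and at -2.54, -2.30 and -2.29 in DMBA, again without overlap. It gave 1.46 (SE 0.26), with a limma p of 0.00113 before adjustment and an adjusted p of 0.513 over all kept probes. The third probe gave 1.15 (SE 1.03) with overlapping groups, so the 3 probes shared a direction and differed in size. Other genes of the list separated downward, as 5.17% of all genes did. Nono was at -0.16 and Fbxw11 at -0.25 on the brightest probe. A dimmer probe of Gsk3b gave -1.01 (SE 0.23), while its other probes gave 0.19 and 0.10 with overlapping groups.

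Nfil3, which encodes the repressor that competes with DBP for the D-box letters shown above in Per3, lay at 0.39, 1.08 and 1.04 in vehicle and at -0.02, -0.62 and 0.45 in DMBA. DMBA 3 exceeded vehicle 1, and the log2 fold change was -0.90 (SE 0.36; limma adjusted p = 0.942). Tef and Hlf, which encode the activators of the same family as DBP, had values of -0.32 (SE 0.24) and 0.10 (SE 0.42). No member of the D-box family was called.

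None of the other feedback partners described here passed at unadjusted p under 0.05. Cry2, the second cryptochrome, had a log2 fold change of 0.39 (SE 0.32) and Bhlhe40, which encodes DEC1, 0.19 (SE 0.31). Rora, an activator of Arntl, had -0.13 (SE 0.40), with -0.56 (SE 0.96) on another probe. Ciart, a repressor of the ARNTL pair, had -0.19 (SE 0.29). The kinases that mark PER proteins for breakdown had 0.15 (SE 0.32) for Csnk1d and 0.44 (SE 0.32) for Csnk1e, each with a negative value on another probe (-0.11 and -0.16). The remaining Csnk1e probe gave 0.48 (SE 0.85). Among 11 output genes of the clock, 5 were positive and 6 negative (median -0.19). They share Bhlhe41, Nfil3, Tef, Hlf, Ciart and Bhlhe40 with the list above. At unadjusted p under 0.05 Bhlhe41 and Nfil3 were again lower and 0 were higher, against 2.49% and 2.73% of all genes.

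By Pearson's r over the 6 arrays, the genes outside the clock list that followed Dbp most closely were Plag1 (r = 0.996), Mgat4e (0.987) and Rpf1 (0.985). Those that followed Arntl most closely were Upk1a (0.997), Trafd1 (0.993) and Ttc28 (0.992). In all, 34 genes (0.191% of those tested) had r over 0.95 with Dbp and 32 (0.179%) with Arntl. These are descriptions over 6 arrays, and the values of an array share its scaling and slide.

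Markers of other cells in the sort were read beside these values. Of 4 melanocyte markers, 2 were higher at unadjusted p under 0.05, Tyrp1 with 3.35 (well above background on 1 of the 3 vehicle arrays) and Mlana with 2.72. The other 2 were negative and not past that level, Pmel at -0.47 and Dct at -0.05, and the mean of the 4 lay at -3.59 to -1.19 on the vehicle arrays and -2.08 to -0.24 on the DMBA arrays. Of 3 fibroblast markers tested, Dcn was higher with 1.51, and their mean lay at -2.38 to -1.39 in vehicle and -0.98 to -0.46 in DMBA. Of 4 interfollicular and sebaceous markers, Ly6a, which encodes Sca1, was higher with 1.45, and the mean of the list lay at 1.97 to 2.54 in vehicle and 2.46 to 2.99 in DMBA. Of the 8 follicle markers, 4 were positive and 4 negative. Lgr5 was the one past unadjusted p under 0.05, at -0.64, with every DMBA array below every vehicle array. Sox9, at -0.50, separated in the same way, as 5.17% of all genes did. The positive ones, among them Krt15 at 0.19 and Krt5 at 0.22, overlapped between the groups. The mean of the 8 follicle markers lay at 4.48 to 4.53 in vehicle and 4.28 to 4.53 in DMBA. The 4 leukocyte markers ranged from -0.49 (H2-Aa) to 0.18 (Cd3e), and their mean lay at -1.75 to -1.65 in vehicle and -1.86 to -1.69 in DMBA. The endothelial marker tested, Pecam1, was at -0.51. The erythroid marker tested, Hba-a1, was at 0.72 and spanned 14.65-fold over the arrays. In these 3 lists 0 genes were past unadjusted p under 0.05. None of the markers passed at adjusted p under 0.05 in limma, and the part of these cells in the clock values was not tested.

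**Figure D4:**
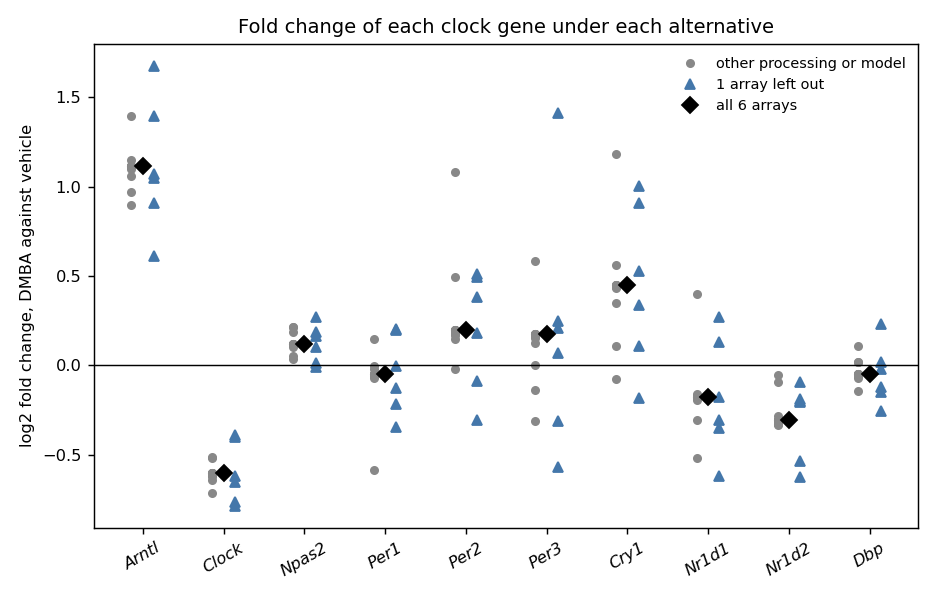
Log2 fold change of each core clock gene over all 6 arrays (black), with 1 array left out (blue) and under other processing or models (grey). Arntl stays above 0 and Clock and Nr1d2 below it throughout, while Per3 ranges from -0.57 to 1.41.

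Across the alternatives, Arntl stayed positive and Clock and Nr1d2 negative. Several settings could not move these genes, which have 1 probe each: the filters, the probe choices and the replicate block returned the value of all 6 arrays, and the slide block repeats the fit without vehicle 1. Over the settings that moved them, the range was 0.61 to 1.68 for Arntl, -0.78 to -0.39 for Clock and -0.63 to -0.05 for Nr1d2. The other 7 genes turned sign in at least 1 alternative. None of the 10 genes passed at adjusted p under 0.05 in any of them, the smallest adjusted p being 0.675, for Per2 in the fit that adds each array's share of detected probes as a covariate. Vehicle 1 was alone on its slide, and within the other slide Arntl was at 1.40 and Clock at -0.62.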

How the data were processed

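RNA from 3 vehicle and 3 DMBA samples was measured on 1-colour Agilent arrays. Per the file headers, the deposited intensity values are background-corrected spot signals from Agilent Feature Extraction 10.7.1.1, with probes placed on mm9; the authors' deposited matrix holds intensity scaled so that each array's 75th percentile is near 1. From the scanner files, log2 intensity minus the log2 75th percentile over non-control spots was computed. The 3671 control spots were left out, and 45 flagged probe values were set missing. Probes had to be well above background on 3 or more arrays to be kept (44955 of 55681). Names came from RefSeq accessions without versions (GRCm38.p6 table, names only; 28331 probes matched). The brightest kept probe stood for a gene. Across all 17848 genes DMBA was compared with vehicle in limma 3.58.1 (R 4.3.3, two-sided, Benjamini-Hochberg), a script tested on simulated data. The number of arrays limits the precision. Vehicle 1 lay on its own slide and scan. Replicate numbers did not pair the samples (r from -0.02 to 0.06 between same-numbered arrays).

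Alternatives were background correction, normalization, the filter, probe choice, slide, array weights, covariate, replicate block and each array left out. The members and gene lists were chosen with earlier results of these data known. Named genes were all members, 10 feedback partners (another is not reported here), list genes at unadjusted p under 0.05, and the 3 genes most like Dbp and Arntl.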

Additional observations from a re-analysis of the deposited data

How the results depend on the processing

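With 3 arrays a group, signals near background and 1 array can decide a value. None of the 10 clock genes passed at adjusted p under 0.05 under any alternative run. At unadjusted p, 1 was higher with each array's share of detected probes as a covariate (Per2, 1.08) and 0 to 1 when each array was left out (Per3 at 1.41 without vehicle 2, Arntl at 1.68 without DMBA 3). Over all genes, 0 to 1 passed the adjusted threshold when each array was left out, and 395 to 727 were lower at unadjusted p, the most without DMBA 1. The number of genes higher at unadjusted p was 488 of 17848 in the main fit. It was 1258 of 21368 without the filter on dim probes, which tests more genes. With the covariate it was 757 of 17848, and the covariate moved the median of all genes to 0.10. These causes were not tested.

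Signs turned as follows. With the slide as a block, the same as a fit without vehicle 1, Per3 was -0.31 and Dbp 0.019. With array weights Per1 was 0.15, Per2 -0.018, Per3 -0.14 and Cry1 -0.074. With the covariate Nr1d1 was 0.40 and Dbp 0.11. With the mean of its probes Dbp was 0.021, and with normexp correction on the median signal, used because the files hold no mean signal, Per3 was -0.00045. With 1 array left out, the ranges were -0.0084 to 0.27 for Npas2, -0.34 to 0.20 for Per1, -0.31 to 0.51 for Per2, -0.57 to 1.41 for Per3, -0.18 to 1.01 for Cry1, -0.62 to 0.27 for Nr1d1 and -0.26 to 0.23 for Dbp. Without the 2 arrays farthest from the Arntl median, its r was 0.23 with Npas2, -0.80 with Cry1 and -0.42 with Nr1d1. With the replicate block, which changed no call, Arntl stayed at 1.12, with 510 genes higher and 469 lower at unadjusted p.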
